A study of Mus musculus with 19 samples.

Results

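Interferon-stimulated genes are the genes that cells switch on when interferon binds its receptors. Named here were 40 of them, and 37 had an array probe set annotated to them alone, out of 22180 genes measured that way. Where a gene had more than 1 such probe set, the one with the highest mean over all arrays was used. Oas1a and Gbp2 lie only on probe sets shared with another gene, and Ifi44 has no annotated probe set here, so these 3 have no value. They were measured in whole liver, with 1 array for each of 19 mice that were 2 to 3 months old. A normal diet (ND) or, in its place, one high in fat (HFD) was fed over 4 weeks. Genotypes are coded WT, KO and TG, and the gene in question is Kcp, whose secreted product (Kielin/chordin-like protein) modulates BMP and TGF-beta signals. WT, KO and TG each had 3 arrays on ND; on HFD, WT and KO had 3 and TG had 4. Which allele KO stands for, what drives the transgene in TG, and the strain, sex, litter and batch are not given in the sources used here. The titles hold a running number in group order and a further number, read here as the animal's, which the labels do not explain. Both differ between the groups, so that genotype or diet cannot be told apart from order or cohort. Replicates were taken as separate animals from the further number.

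Type I interferons are made when a cell senses foreign nucleic acid, and they signal through JAK kinases to a transcription factor complex that holds STAT2 and IRF9. That complex binds a DNA element, the interferon-stimulated response element (ISRE), in front of its target genes. Interferon gamma acts through a different element (GAS) and induces IRF1, guanylate-binding proteins and the antigen-processing machinery. IRF7, itself induced, drives further interferon production. In the liver, hepatocytes, Kupffer cells (the resident macrophages) and endothelial cells all respond to interferon. In whole liver, fewer cells of a type and less RNA per cell cannot be told apart.

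Sequences from the RefSeq promoter table (build GRCm38.p6) show an element found in front of some of these genes. Each promoter window runs from 250 bases before a transcription start to 50 after it. The ISRE was searched as GAAA, any 2 bases, GAAA on both strands. Of the 40 named genes 30 had at least 1 window and 16 of the 30 (53.3%) held a match, against 3.99% of the 27025 genes in the table; by windows the shares were 16 of 37 (43.2%) and 3.44%. The GAS element, searched as TTC, any 3 bases, GAA, which reads the same on both strands, was in 10 of the 37 windows (27.0%) and in 8.30% of all windows. Printed next are the stretches around the ISRE match for Bst2, Stat2 and Oas1g, which rose in TG livers, and for Isg15, Ifit1 and Rsad2, which carry a match and did not pass the test between TG and WT. They are written 5′ to 3′ along each gene, end before the start site, and have the match in capitals; a match read from the opposite strand appears as TTTC, any 2 bases, TTTC.
Bst2 (chr8:71537562-71537627, minus strand): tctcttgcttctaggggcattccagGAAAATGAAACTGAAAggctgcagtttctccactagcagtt
Stat2 (chr10:128270251-128270310, plus strand): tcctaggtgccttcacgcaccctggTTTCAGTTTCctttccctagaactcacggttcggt
Oas1g (chr5:120887614-120887656, minus strand): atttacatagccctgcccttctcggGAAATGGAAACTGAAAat
Isg15 (chr4:156200850-156200921, minus strand): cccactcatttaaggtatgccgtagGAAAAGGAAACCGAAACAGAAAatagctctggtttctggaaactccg
Ifit1 (chr19:34640760-34640838, plus strand): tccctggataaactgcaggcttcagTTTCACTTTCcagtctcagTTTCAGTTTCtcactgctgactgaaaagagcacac
Rsad2 (chr12:26456538-26456597, minus strand): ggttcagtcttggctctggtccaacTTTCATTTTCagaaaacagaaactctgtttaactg
The Bst2 stretch holds 2 overlapping matches, the first starting 130 bases before the start site, and 1 of them overlaps the GAS match of that window. Isg15 holds 3 overlapping matches from 78 bases before the start, and Ifit1 holds 2 separate ones from 104 and 85 bases before it. In Oas1g 2 overlapping matches begin 18 bases before the start. Among the 12 genes that rose in TG on either diet, 5 had a window and 3 of those a match; among the 25 measured genes that did not, 22 had a window and 11 a match. Irf7 and Irf8, which rose, have no ISRE match in their windows. A match is a description of the letters, not evidence of a bound site.

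Values are given as log2 values of the deposited table, so that a difference of 1 is a doubling. A gene is said to have risen or fallen where its adjusted p, from a limma model of all 22180 genes adjusted by Benjamini-Hochberg within a comparison, was under 0.05. Hepatocyte markers were high in every array, with means from 8.87 (Hnf4a) to 12.35 (Alb). Kcp averaged 5.56 ± 0.19 in TG on ND and 5.66 ± 0.13 in TG on HFD (SD, n = 3 and 4), against 2.41 to 2.82 on ND and 1.77 to 2.51 on HFD in WT arrays. In KO arrays it lay between 1.64 and 2.30 on ND and between 1.90 and 2.17 on HFD, so that its level did not check the KO label. WT HFD replicate 1 and TG HFD replicate 2 correlated least with the arrays of other groups (mean r 0.9633 and 0.9651 over all probe sets, 0.9675 to 0.9727 for the rest). Counts without them are given where they move a call. Of the 37 genes 5 had a mean below 2, where background can hide differences: Mx1, Oas1g, Oas3, Ifit2 and Gbp6. Over all 22180 genes 56.5% had such a mean, so the shares of all genes given for the comparisons come from a dimmer set. How far the gap between the list and all genes goes with level was not tested.

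The interferon-stimulated genes were highest in TG livers and, for most of them, lowest in KO livers on ND. A TG group had the highest of the 6 group means in 30 of 37 genes, 13 on ND and 17 on HFD, where 16.2% and 16.4% of all genes had their highest mean. KO on ND had the lowest mean in 21 genes, against 18.4% of all genes, and the highest in none. The mean over the 37 genes, each taken as its deviation from its own mean over 19 arrays, was 0.33, 0.26 and 0.34 in the arrays of TG on ND and 0.32, 0.18, 0.49 and 0.36 in those of TG on HFD. The WT livers stood at -0.32, -0.07 and -0.25 with the normal diet, and at -0.25, -0.24 and -0.09 with HFD. Every TG array lay above every WT array on this mean. KO arrays stood at -0.36, -0.44 and -0.35 on ND, below every other array, and at 0.07, -0.17 and 0.17 on HFD, where 1 of 3 lay among the WT values.

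**Figure D1:**
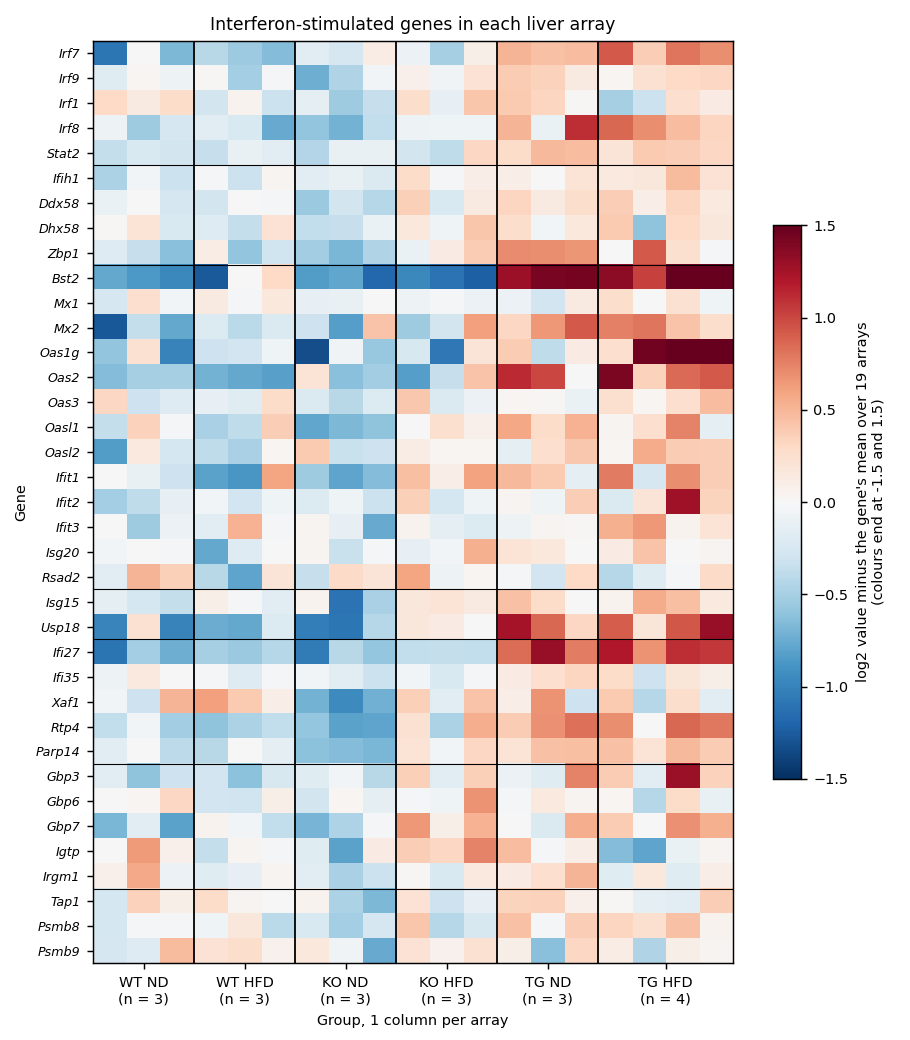
Heat map of 37 interferon-stimulated genes (rows, ordered by role) in 19 liver arrays (columns, by group), coloured by the log2 value minus the gene's mean over all arrays. Ifi27 is red in every TG array and blue in every other array, while most genes of KO on ND are blue; the antigen-processing genes at the bottom show little contrast.

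The first question was how TG livers differed from WT livers on each diet. On ND 7 of 37 genes rose in TG and none fell, where 0.924% of all genes rose and 0.379% fell. The genes were Ifi27, Bst2, Zbp1, Irf7, Stat2, Mx2 and Usp18. On HFD 9 rose and none fell, where 1.68% of all genes rose and 1.88% fell: Ifi27, Bst2, Irf7, Oas2, Rtp4, Usp18, Parp14, Irf8 and Oas1g. The median difference of the 37 genes was 0.39, against -0.0033 over all genes tested on ND, and 0.39, against -0.0040 over all genes tested on HFD. The arrays of TG lay wholly above those of WT in 15 of 37 genes on ND, a state found in 8.14% of all genes, and in 15 on HFD, against 5.95%. None of the 37 lay wholly below, where 7.62% of all genes did on ND and 6.39% on HFD.

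The comparisons on ND and on HFD share no arrays, but they share the model's estimate of each gene's spread and are not independent. Irf7, Bst2, Usp18 and Ifi27 rose in both, which is 4 of 7 genes (57.1%) on ND and 4 of 9 (44.4%) on HFD. The difference between the diets was itself tested as the diet effect in TG minus that in WT. None of the 37 genes passed in that limma test, and none had an unadjusted p under 0.05, where 7.87% of all genes did, with values from -0.58 (Mx2) to 0.97 (Oas1g). Over all genes 0.221% passed it. Genes called on 1 diet alone are therefore not shown to respond differently on the other. With 1 array left out at a time, 2 to 5 genes rose on ND, with Bst2 and Ifi27 among them each time, and 5 to 9 on HFD, with Irf7, Bst2, Oas2 and Ifi27 among them each time. The count on ND was 2 without WT ND replicate 3, 3 without WT ND replicate 1 or TG ND replicate 2, and 4 without TG ND replicate 1 or 3. On HFD it was 5 without WT HFD replicate 1, and also 5 when the model held the compared arrays alone, a setting in which Irf7 and Usp18 on ND and Irf8, Bst2, Oas1g, Rtp4 and Parp14 on HFD did not pass. Of the 4 genes that rose on both diets, Ifi27 alone did so in that setting. Other settings added calls. Oas2, Rtp4 and Parp14 passed on ND when genes with a mean of at least 2 alone were tested (adjusted p = 0.0431, 0.0364 and 0.0259). Stat2 passed on HFD with the same filter (0.0245), with quantile normalization (0.0419) and with a trended robust variance (0.0309). Mx2 passed on HFD with the compared arrays alone (0.0474). Leaving out 1 array added Irf8 or Oas2 on ND and Ifit1 or Gbp3 on HFD.

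**Figure D2:**
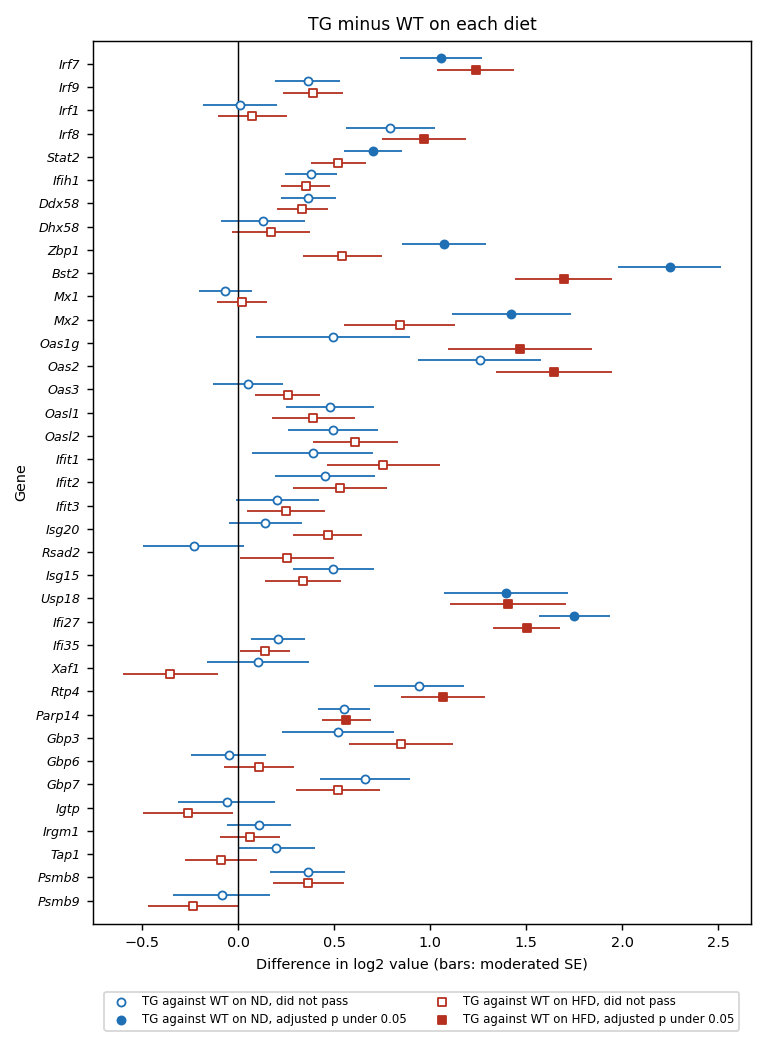
Difference in log2 value between TG and WT livers on ND (circles) and HFD (squares) for each of the 37 genes, with moderated SE as bars; filled symbols passed at an adjusted p under 0.05. Bst2 and Ifi27 lie between 1.50 and 2.25 on both diets, whereas Igtp, Mx1, Gbp6, Psmb9, Tap1, Rsad2 and Xaf1 lie below 0 on at least 1 diet.

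Macrophage markers differed between TG and WT as well. Among 22 Kupffer cell and macrophage markers, 14 rose in TG on ND and 16 on HFD, with median differences of 1.19 and 1.23. Their mean log2 level ranged over 5.16 to 5.72 in TG on ND and 5.13 to 5.66 in TG on HFD, against 4.17 to 4.27 and 4.11 to 4.35 in WT. The scavenger receptor Marco differed by 3.21 on ND and 3.75 on HFD, and the Kupffer cell receptor Clec4f by 1.43 and 1.42. Of the 22 markers, 1 (Cx3cr1) was below 2 in every array. Array by array the 2 sets did not run alike. As mean deviations, the markers stood at 0.81, 0.93, 0.55 and 0.40 in TG on HFD. The 37 genes stood at 0.32, 0.18, 0.49 and 0.36 in the same arrays. In TG on ND replicate 3 was highest in both sets. KO on ND averaged above WT on ND for the markers (-0.42 and -0.53) and below it for the 37 genes (-0.38 and -0.21). The part of the macrophage markers in the interferon-stimulated values was not tested. Markers of plasmacytoid dendritic cells, which make type I interferon and carry BST2, were dim: 6 of 8 were below 2 in every array, and Siglech lay between 0.44 and 1.15, with a TG minus WT difference of 0.07 (adjusted p = 0.952) on ND and -0.08 (adjusted p = 0.874) on HFD. None of the 8 rose, and Ly6d fell in TG on HFD. T and NK cell markers had means below 2 in all 15 cases, and 1 of them, Cd4, rose in TG on HFD (1.13). All 9 B and plasma cell markers had the higher mean in TG on HFD, against 49.2% of all genes, and the antibody chain Ighm rose there (2.38). Of these 9 markers 8 had a mean below 2, and on ND Cd79a, Cd79b and Ms4a1 had the lower mean in TG and the rest the higher. Of 10 stellate cell markers 9 had the higher mean in TG on each diet; Reln rose on both (0.47 and 0.43) and Dcn on ND (0.61). Of 10 sinusoidal endothelial markers Lyve1 rose on HFD (1.52). The part of these markers was not tested either.

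**Figure D3:**
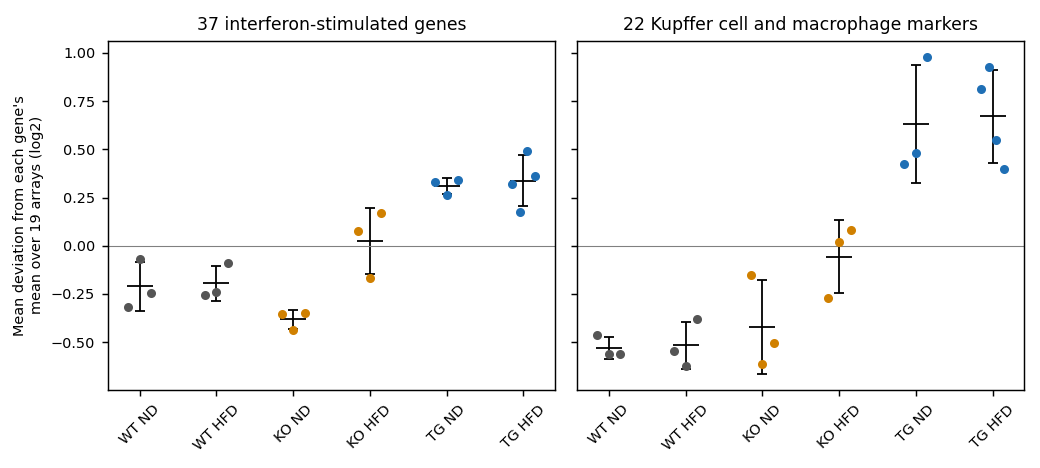
Mean deviation of the 37 interferon-stimulated genes (left) and of 22 macrophage markers (right) from each gene's mean over 19 arrays, on the log2 scale; points are arrays, and bars are the group mean and SD. In both panels every TG array lies above every WT array, and the mean of KO on HFD lies between those of WT and TG. The mean of KO on ND lies below that of WT on ND on the left and above it on the right.

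The transcription factors of the response came first. IRF7, the factor that amplifies interferon production, rose in TG on both diets. WT arrays of Irf7 were 4.31, 5.40 and 4.73 on ND and 4.98, 4.86 and 4.75 on HFD. TG arrays were 5.91, 5.84 and 5.87 on ND and 6.32, 5.77, 6.21 and 6.10 on HFD. All 7 TG arrays lay above all 6 WT arrays, by 1.06 (SE 0.22, adjusted p = 0.0164) on ND and 1.24 (SE 0.20, adjusted p = 0.00163) on HFD. On ND its adjusted p reached 0.0859 without WT ND replicate 1 and the call was lost in 5 of 6 such fits. KO arrays, at 5.23, 5.15 and 5.51 on ND and 5.31, 4.91 and 5.50 on HFD, lay within or above the WT range and below every TG array. The difference from TG passed on HFD (-0.86, SE 0.20, adjusted p = 0.0296) but not without 5 of the 7 arrays in turn (highest adjusted p 0.168). On ND KO minus TG was -0.57 (adjusted p = 0.18).

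STAT2 and IRF9 are parts of the ISRE-binding complex. Stat2 was 5.60, 5.73 and 5.68 in WT and 6.24, 6.45 and 6.43 in TG on ND, groups that did not overlap, and rose by 0.70 (SE 0.15, adjusted p = 0.0242). That call was lost without 5 of 6 arrays in turn (highest adjusted p 0.104). On HFD WT was 5.62, 5.85 and 5.79 and TG 6.15, 6.35, 6.33 and 6.28, again without overlap, with a difference of 0.52 (SE 0.14, adjusted p = 0.0507) that missed the threshold. KO arrays of Stat2 were 5.52, 5.85 and 5.85 on ND and 5.68, 5.58 and 6.27 on HFD; 1 KO HFD array stood with the TG arrays. Irf9 was 5.24, 5.45 and 5.34 on ND and 5.43, 4.90 and 5.40 on HFD in WT. In TG it was 5.80, 5.76 and 5.55 on ND and 5.44, 5.65, 5.71 and 5.73 on HFD. Its TG minus WT differences were 0.36 (adjusted p = 0.483) on ND and 0.39 (adjusted p = 0.225) on HFD, neither past the test, with no overlap on either diet. KO arrays of Irf9 were 4.69, 4.97 and 5.37 on ND and 5.49, 5.36 and 5.64 on HFD, and KO minus TG on ND was -0.69 (SE 0.17, adjusted p = 0.0216), a call lost without 4 of 6 arrays in turn (highest adjusted p 0.116).

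IRF8 is a factor of macrophages and dendritic cells, and IRF1 a target of interferon gamma. Irf8 was dim in WT, at 1.95, 1.49 and 1.78 on ND and 1.87, 1.80 and 1.27 on HFD, and reached 2.54, 1.93 and 3.13 on ND and 2.88, 2.72, 2.50 and 2.35 on HFD in TG. On HFD every TG array was above every WT array and the gene rose by 0.97 (SE 0.22, adjusted p = 0.0174); that call was lost with the mean of its probe sets (adjusted p = 0.0703) and without 2 of 7 arrays in turn (highest adjusted p 0.111). On ND the groups overlapped, with 0.79 (adjusted p = 0.135). KO arrays of Irf8 were 1.44, 1.32 and 1.66 on ND and 1.96, 1.97 and 1.97 on HFD, and KO differed from TG on ND by -1.06 (SE 0.23, adjusted p = 0.012), again not with the mean of its probe sets (adjusted p = 0.0631). Irf1 did not separate TG from WT. Its WT arrays were 4.68, 4.51 and 4.65 on ND and 4.10, 4.42 and 4.05 on HFD and its TG arrays 4.76, 4.70 and 4.40 on ND and 3.87, 4.05, 4.63 and 4.50 on HFD. TG minus WT was 0.01 (adjusted p = 0.997) on ND and 0.07 (adjusted p = 0.911) on HFD, and the arrays overlapped on both diets. KO arrays of Irf1 were 4.25, 3.84 and 4.03 on ND and 4.63, 4.26 and 4.79 on HFD, with all 3 on ND below all 3 WT arrays on ND (-0.57, adjusted p = 0.143).

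Among the sensors of foreign nucleic acid, ZBP1, which binds Z-form DNA and RNA and can trigger cell death, rose in TG on ND. WT arrays of Zbp1 were 3.88, 3.72 and 3.44 on ND and 4.17, 3.47 and 3.77 on HFD. TG arrays were 4.78, 4.76 and 4.72 on ND and 4.06, 4.98, 4.31 and 4.03 on HFD. The 3 TG arrays on ND lay between 4.72 and 4.78, above every WT array, by 1.07 (SE 0.22, adjusted p = 0.0159), a call lost without 5 of 6 arrays in turn (highest adjusted p 0.0919). On HFD 3 of the 4 TG arrays lay near the highest WT array and the difference was 0.54 (adjusted p = 0.179). KO arrays of Zbp1 were 3.54, 3.38 and 3.62 on ND and 3.97, 4.19 and 4.45 on HFD, and KO differed from TG on ND by -1.24 (SE 0.22, adjusted p = 0.00245). Ddx58 encodes RIG-I and Ifih1 MDA5, the cytosolic sensors of viral RNA. Ddx58 was 5.17, 5.26 and 5.02 on ND and 5.00, 5.27 and 5.25 on HFD in WT and 5.60, 5.41 and 5.54 on ND and 5.64, 5.38, 5.59 and 5.42 on HFD in TG. Its groups did not overlap on either diet, yet the differences of 0.36 (adjusted p = 0.349) and 0.33 (adjusted p = 0.22) did not pass. In KO it was 4.72, 5.00 and 4.84 on ND and 5.63, 5.04 and 5.41 on HFD, and on ND differed from TG by -0.66 (SE 0.14, adjusted p = 0.0107), a call lost without 2 of 6 arrays in turn (highest adjusted p 0.0512). Ifih1 had arrays from 6.56 to 7.52 and TG minus WT at 0.38 and 0.35, and Dhx58, a regulator of both sensors, at 0.13 and 0.17; neither passed.

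Bst2 had the largest TG minus WT difference of the 37 genes on both diets. Its product, tetherin, holds budding virus particles at the cell surface. WT arrays on ND were 6.35, 6.26 and 6.16 and TG arrays 8.41, 8.55 and 8.56, a difference of 2.25 (SE 0.27, adjusted p = 0.000125), or 4.75-fold. On HFD the WT arrays spread over 5.87, 7.14 and 7.43, and the TG arrays were 8.47, 8.15, 8.72 and 8.68. The difference of 1.69 (SE 0.25, adjusted p = 0.000799) held without any 1 array, while the model of the compared arrays alone gave an adjusted p of 0.0535. KO arrays were 6.29, 6.35 and 5.95 on ND and 6.17, 6.02 and 5.91 on HFD, all below every TG array, and KO differed from TG by -2.31 (SE 0.27, adjusted p = 4.84e-05) on ND and -2.47 (SE 0.25, adjusted p = 3.13e-05) on HFD. The low WT array on HFD was replicate 1, which also stood apart over all probe sets. With it KO minus WT on HFD was -0.78 (adjusted p = 0.363), and without it -1.25 (adjusted p = 0.00235). Likewise HFD minus ND in WT was 0.55 (adjusted p = 0.459) with it and 1.02 (adjusted p = 0.00533) without it.

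The oligoadenylate synthetases make the second messenger that activates RNase L. Oas2 was 2.20, 2.36 and 2.36 on ND and 2.14, 2.09 and 2.04 on HFD in WT and 3.98, 3.86 and 2.85 on ND and 4.26, 3.20, 3.70 and 3.78 on HFD in TG. No TG array overlapped WT on either diet; the gene rose on HFD by 1.64 (SE 0.30, adjusted p = 0.0043) and missed the threshold on ND (1.26, adjusted p = 0.0682). KO arrays of Oas2, at 3.07, 2.23 and 2.33 on ND and 2.03, 2.51 and 3.28 on HFD, ran from the WT range into the TG range. KO minus TG was -1.02 (adjusted p = 0.0931) on ND and -1.13 (adjusted p = 0.0581) on HFD. The HFD difference passed when genes with a mean of at least 2 alone were tested (adjusted p = 0.0349) and with quantile normalization (0.0474). It also passed with a trended robust variance (0.0486), array weights (0.0461), and without KO HFD replicate 3 (0.0232) or TG HFD replicate 2 (0.0409). The ND difference passed without KO ND replicate 1 (0.0474) or TG ND replicate 3 (0.0228). Oas1g, dim and a close copy of Oas1a with which it can share signal, was 0.83, 1.66 and 0.42 on ND and 1.11, 1.14 and 1.36 on HFD in WT. In TG it was 1.81, 1.04 and 1.55 on ND and 1.67, 2.87, 3.04 and 3.09 on HFD, with 3 HFD arrays near 3 and the other at 1.67. On HFD it rose by 1.47 (SE 0.38, adjusted p = 0.0356), a call lost without 6 of 7 arrays in turn (highest adjusted p 0.124). KO arrays of Oas1g were 0.10, 1.37 and 0.85 on ND and 1.19, 0.35 and 1.61 on HFD, and KO minus TG was -1.62 (adjusted p = 0.0279) on HFD, lost without 5 of 7. The neighbouring Oas3 stayed between 0.98 and 1.87 in all arrays, with TG minus WT at 0.05 on ND and 0.26 on HFD.

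Of the related OASL proteins Oasl1 was 3.48, 4.19 and 3.81 on ND and 3.35, 3.46 and 4.21 on HFD in WT, 4.42, 4.12 and 4.36 on ND and 3.89, 4.10, 4.58 and 3.69 on HFD in TG and 3.07, 3.17 and 3.24 on ND and 3.84, 4.08 and 3.92 on HFD in KO. KO on ND lay below every other array, and KO minus TG on ND was -1.14 (SE 0.23, adjusted p = 0.00651), while TG minus WT was 0.48 (adjusted p = 0.516). Oasl2 ranged over 1.72 to 3.12 and differed between TG and WT by 0.49 and 0.61, without passing. Mx2 is the gene of a dynamin-like GTPase. It was 1.77, 2.68 and 2.27 on ND and 2.82, 2.63 and 2.81 on HFD in WT and 3.34, 3.69 and 3.95 on ND and 3.80, 3.84, 3.46 and 3.30 on HFD in TG. The groups did not overlap, and the rise on ND was 1.42 (SE 0.31, adjusted p = 0.0247), lost without 4 of 6 arrays in turn (highest adjusted p 0.129); on HFD the difference was 0.84 (adjusted p = 0.135). KO arrays of Mx2 were 2.72, 2.21 and 3.47 on ND and 2.50, 2.76 and 3.65 on HFD. Mx1, its sister gene, was dim throughout, between 0.24 and 0.78.

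The IFIT proteins bind viral RNA and stop its translation. Their 3 genes did not pass between TG and WT on either diet. Ifit1 was 3.80, 3.70 and 3.49 on ND and 3.00, 2.93 and 4.40 on HFD in WT, 3.27, 3.01 and 3.15 on ND and 4.25, 3.90 and 4.40 on HFD in KO and 4.28, 4.20 and 3.67 on ND and 4.58, 3.55, 4.49 and 4.17 on HFD in TG. WT HFD replicate 3 was high, and without it TG minus WT on HFD was 1.23 (adjusted p = 0.011) in place of 0.76 (adjusted p = 0.202). Ifit2 lay between 0.64 and 2.42 and Ifit3 between 1.94 and 3.35. TG minus WT for Ifit2 was 0.45 and 0.53, and for Ifit3 0.20 and 0.25, on ND and HFD. Isg20, an exonuclease of RNA, differed by 0.14 and 0.47, and Rsad2, which encodes viperin, by -0.23 and 0.25. Rsad2 thus had its lower mean in TG on ND, with overlapping arrays of 2.93 to 3.61 in WT and 2.81 to 3.40 in TG.

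ISG15 is a ubiquitin-like protein attached to other proteins, and USP18 is the enzyme that removes it and also dampens the type I interferon receptor. Usp18 was 3.16, 4.37 and 3.14 on ND and 3.40, 3.38 and 3.93 on HFD in WT, and 1 WT ND array stood near the lower TG arrays. TG arrays were 5.38, 5.00 and 4.46 on ND and 5.05, 4.32, 5.08 and 5.45 on HFD, above WT on both diets. It rose by 1.39 (SE 0.32, adjusted p = 0.0384) on ND and 1.40 (SE 0.30, adjusted p = 0.0128) on HFD, but the ND call was lost without 4 of 6 arrays in turn (highest adjusted p 0.19) and the HFD call without 2 of 7 (highest 0.0695). KO arrays of Usp18 were 3.11, 3.05 and 3.72 on ND and 4.31, 4.26 and 4.13 on HFD, and on ND they differed from TG by -1.65 (SE 0.32, adjusted p = 0.00532). Isg15 itself was 2.84 to 3.05 in WT and 3.20 to 3.63 in TG on ND, with no overlap, and TG minus WT of 0.49 (adjusted p = 0.417) and 0.34 (adjusted p = 0.456) on ND and HFD did not pass. KO minus TG of Isg15 on ND, at -0.75, did not pass in the main fit. It passed when genes with a mean of at least 2 alone were tested (adjusted p = 0.0276), with array weights (0.0338) and without KO ND replicate 1 (-1.03, adjusted p = 0.00492).

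**Figure D4:**
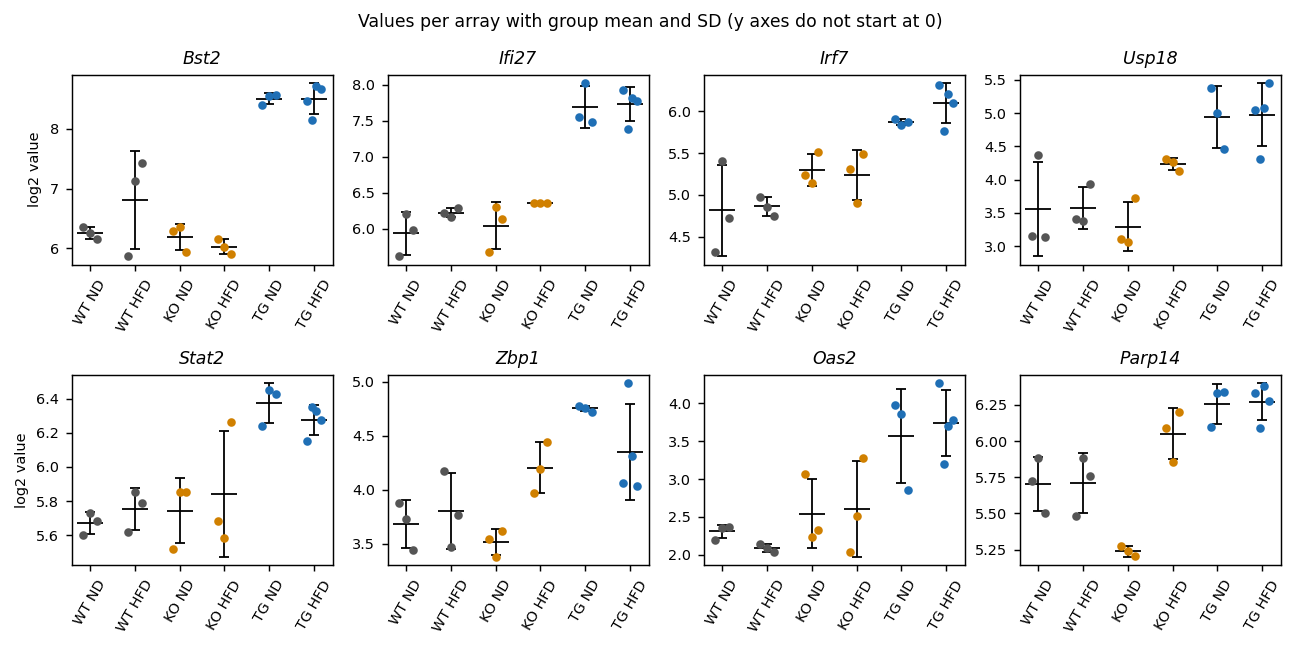
Log2 values per array (points) with group mean and SD (bars) for 8 genes in WT (grey), KO (orange) and TG (blue) livers on ND and HFD; the y axes do not start at 0. In every gene shown but Zbp1 all 7 TG arrays lie above the WT arrays of their diet, and Parp14 in KO on ND lies below all other arrays.

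Ifi27, which encodes a small hydrophobic protein, had the smallest p of the list in both TG comparisons. WT arrays were 5.62, 6.21 and 5.99 on ND and 6.22, 6.17 and 6.29 on HFD. TG arrays were 7.55, 8.02 and 7.49 on ND and 7.92, 7.39, 7.82 and 7.78 on HFD, all above WT and KO. The rise was 1.75 (SE 0.19, adjusted p = 3.38e-05) on ND and 1.50 (SE 0.17, adjusted p = 7.66e-05) on HFD, kept without any 1 array. KO arrays of Ifi27 were 5.68, 6.31 and 6.14 on ND and 6.35, 6.36 and 6.36 on HFD, and KO minus TG was -1.65 (SE 0.19, adjusted p = 3.86e-05) on ND and -1.37 (SE 0.17, adjusted p = 0.000236) on HFD. Rtp4, an interferon-induced chaperone of receptors, was 5.10, 5.43 and 4.95 on ND and 4.87, 5.00 and 5.10 on HFD in WT. In TG it was 5.85, 6.16 and 6.29 on ND and 6.17, 5.46, 6.33 and 6.26 on HFD, above WT on both diets. It rose on HFD by 1.07 (SE 0.22, adjusted p = 0.00971), with an adjusted p of 0.0551 without WT HFD replicate 1, and stood at 0.94 (adjusted p = 0.0589) on ND. KO arrays of Rtp4 were 4.89, 4.67 and 4.68 on ND and 5.70, 5.00 and 6.01 on HFD, and on ND they differed from TG by -1.35 (SE 0.24, adjusted p = 0.00227).

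Parp14, an ADP-ribosyltransferase of the interferon response, separated the KO diets. It was 5.72, 5.88 and 5.50 on ND and 5.48, 5.89 and 5.76 on HFD in WT and 6.10, 6.33 and 6.34 on ND and 6.33, 6.09, 6.38 and 6.28 on HFD in TG. KO arrays were 5.27, 5.24 and 5.20 on ND and 6.09, 5.86 and 6.20 on HFD. On ND every KO array was below every other array of the study, and on HFD the KO arrays overlapped those of WT and TG. TG exceeded WT by 0.56 (SE 0.13, adjusted p = 0.0174) on HFD, a call lost without WT HFD replicate 1 (adjusted p = 0.112), and by 0.55 (adjusted p = 0.0541) on ND. KO minus TG on ND was -1.02 (SE 0.14, adjusted p = 0.00024). Xaf1, whose product favours cell death, overlapped between TG and WT on both diets: WT was 3.67, 3.41 and 4.23 on ND and 4.34, 4.11 and 3.81 on HFD, TG 3.82, 4.39 and 3.40 on ND and 4.11, 3.29, 3.99 and 3.55 on HFD. Its TG minus WT difference was 0.10 on ND and -0.35 on HFD, the lowest of the 37 genes on HFD, without passing. KO was 3.01, 2.76 and 2.99 on ND and 4.08, 3.55 and 4.15 on HFD, low on ND, and KO minus TG on ND was -0.95 (SE 0.26, adjusted p = 0.0499), lost when arrays were median-centred or quantile normalized, and without 5 of 6 arrays in turn (highest adjusted p 0.245). Ifi35, an interferon-induced leucine-zipper protein, ranged over 4.41 to 5.05, with TG minus WT at 0.21 and 0.14.

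The interferon-inducible GTPases, which attack the vacuoles of intracellular microbes and respond mainly to interferon gamma, had no member past the test in TG against WT, with 5 measured. Gbp7 had TG minus WT at 0.66 (adjusted p = 0.265) and 0.52 (adjusted p = 0.253), and Gbp3 at 0.52 (adjusted p = 0.618) and 0.85 (adjusted p = 0.104), on ND and HFD. Igtp had -0.06 and -0.26, Irgm1 0.11 and 0.06, and the dim Gbp6 -0.05 and 0.11. Irgm1 arrays were 3.92, 4.41 and 3.76 on ND and 3.66, 3.71 and 3.88 on HFD in WT and 3.97, 4.09 and 4.35 on ND and 3.66, 4.00, 3.66 and 3.94 on HFD in TG. In KO they were 3.67, 3.35 and 3.52 on ND and 3.86, 3.61 and 3.99 on HFD, and KO minus TG on ND was -0.62 (SE 0.17, adjusted p = 0.0412), lost when arrays were median-centred or quantile normalized, and without 5 of 6 arrays in turn (highest adjusted p 0.179). On HFD Igtp was 5.08 to 5.52 in KO, above TG at 3.98 to 4.80 and WT at 4.41 to 4.80, yet KO minus TG was 0.85 (adjusted p = 0.0678). It passed as higher in KO when genes with a mean of at least 2 alone were tested (adjusted p = 0.0389), with a trended robust variance (0.0499) and without TG HFD replicate 4 (0.99, adjusted p = 0.0381). The antigen-processing genes, the peptide transporter Tap1 and the immunoproteasome subunits Psmb8 and Psmb9, did not pass in any comparison of the main fit. Their TG minus WT differences ran from -0.23 (Psmb9 on HFD) to 0.36 (Psmb8 on HFD). Without KO ND replicate 1, Tap1 passed as lower in KO than in TG on ND (-0.82, adjusted p = 0.0286).

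KO and TG livers were set against each other next. On ND 13 of 37 genes were lower in KO and none higher, where 2.49% of all genes were lower and 1.71% higher. They were Irf8, Irf9 and Stat2 among the factors, Ddx58 and Zbp1 among the sensors, Bst2 and Oasl1 among the effectors, Usp18, then Ifi27, Xaf1, Rtp4 and Parp14, and the GTPase Irgm1. The arrays of KO lay wholly below those of TG in 22 of 37 genes, against 11.1% of all genes, and the median difference was -0.61, against 0.0011 over all genes tested. Zbp1, Bst2, Oasl1, Usp18, Ifi27, Rtp4 and Parp14 passed without any 1 array. On HFD 4 genes were lower in KO, Bst2, Ifi27, Oas1g and Irf7, where 0.897% of all genes were lower and 1.46% higher, and the median was -0.15, against -0.0048 over all genes tested. Without KO HFD replicate 1 or 2 or TG HFD replicate 3 the count on HFD was 2, as it was with the compared arrays alone. Of the 22 macrophage markers, 11 were lower in KO than in TG on ND and 5 on HFD, and Marco differed by -4.97 and -3.05. Also lower in KO were Ighm (-2.12 on ND and -2.23 on HFD), Jchain (-1.19 on HFD), Cd4 (-1.35 and -1.14), Cd3g (-1.36 on ND), the stellate cell markers Reln (-0.62 on ND) and Pdgfrb (-0.86 on ND), and the bile duct marker Sox9 (-1.92 on ND). The part of these markers was not tested. These comparisons share the TG arrays with those of TG against WT.

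Between KO and WT no gene of the list passed in limma on either diet. On ND 6 of 37 had an unadjusted p under 0.05, against 13.3% of all genes, and 27 of 37 had the lower mean in KO, against 50.4% of all genes (median -0.21, against -0.0019 over all genes tested). The smallest adjusted p was that of Parp14 (-0.47, SE 0.14, adjusted p = 0.0795), and Xaf1 stood at -0.85 (adjusted p = 0.106). All KO arrays lay below all WT arrays in 8 genes, against 9.27% of all genes, and above them in none, against 8.83%. Irf7 went the other way at 0.48 (adjusted p = 0.33), and without WT ND replicate 2, its highest WT array, it stood at 0.78 (adjusted p = 0.0482). On HFD the sides were turned, with the higher mean in KO in 29 of 37 genes, against 49% of all genes, and 7 with an unadjusted p under 0.05, against 8.32% (median 0.25, against -0.0045 over all genes tested). KO lay wholly above WT on HFD in 7 genes, against 6.6% of all genes. Bst2 alone passed on HFD without WT HFD replicate 1, and it was lower in KO. Over all genes 2.98% passed on ND and 0.338% on HFD. Macrophage markers had a median KO minus WT difference of 0.20 on ND, where Marco fell (-1.76), and of 0.50 on HFD, where Folr2 rose, and Sox9 fell on ND (-1.69); their part was not tested.

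The high-fat diet was compared with the normal diet in each genotype. In KO 35 of 37 genes had the higher mean on HFD, against 50.9% of all genes, and 13 had an unadjusted p under 0.05, against 11.3%. Of them 1, Parp14, rose (0.81, SE 0.14, adjusted p = 0.0122), where 0.46% of all genes rose. Its adjusted p was 0.0539 without KO ND replicate 2, and it was also lost without KO ND replicate 3 and with the compared arrays alone. The count was 2 without KO ND replicate 1, with Isg15 added, without KO HFD replicate 2, with Rtp4 added, and without WT HFD replicate 1 and TG HFD replicate 2 together, with Zbp1 added. The median difference was 0.32, against 0.0048 over all genes tested. KO arrays on HFD lay wholly above those on ND in 16 of 37 genes, against 9.22% of all genes. Next in order of p came Xaf1 (1.00), Ddx58 (0.51), Rtp4 (0.82) and Gbp7 (0.82), none of which passed. Macrophage markers had a median of 0.46 in the same comparison, with 20 of 22 higher on HFD and none past the test. Of 10 stellate cell markers 9 were higher (median 0.53), and Reln (0.71) and Cygb (0.83) rose. All 10 markers of sinusoidal endothelial cells were higher (median 0.15), none past the test. The part of these markers was not tested.

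In WT and in TG the diet moved no gene of the list past the test. In WT 2 of 37 had an unadjusted p under 0.05, against 11.2% of all genes, Irf1 (-0.42) and Rsad2 (-0.57), and the median was 0.02, against 0.0040 over all genes tested. In TG there were also 2, Oas1g (1.20) and Igtp (-0.56), against 10.1% of all genes, with a median of 0.02, against 0.0028 over all genes tested. Over all genes 1.32% passed in WT and 0.906% in TG. The diet effect in KO minus that in WT was tested as such. No gene of the list passed in limma, 10 had an unadjusted p under 0.05, against 10.9% of all genes, and 32 of 37 had a value above 0, against 50% of all genes (median 0.42, against 0.0003 over all genes tested). Parp14 came nearest at 0.81 (SE 0.19, adjusted p = 0.0595), followed by Irf1 at 0.94 (adjusted p = 0.131). The count was 1 without WT ND replicate 3, WT HFD replicate 2 or KO HFD replicate 2 (Parp14), without WT HFD replicate 1 (Bst2, -1.19) and without WT HFD replicate 3 (Ifit1). In WT the diet count was 1, Bst2, without WT HFD replicate 1. Over all genes 0.825% passed.

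**Figure D5:**
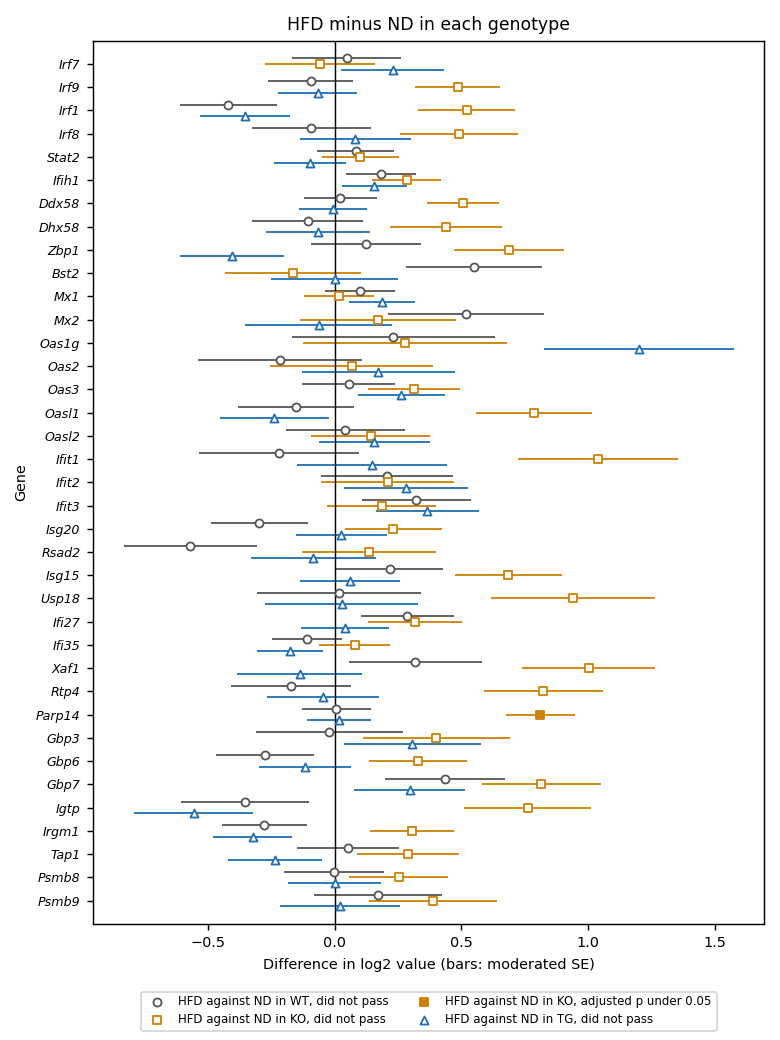
Difference in log2 value between HFD and ND in WT (circles), KO (squares) and TG (triangles) livers for each of the 37 genes, with moderated SE as bars; the filled square, Parp14 in KO, passed. KO values lie right of 0 for 35 of 37 genes, while WT and TG values fall on both sides.

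Genes around the list followed in part. Of 19 measured interferon genes none passed in any of the 11 comparisons; 18 had a mean below 2, with Ifnb1 between 0.08 and 1.14 and Ifng between 0.10 and 0.88, and Ifnl2, an interferon lambda, between 2.51 and 4.07. Of 18 measured receptor and signalling genes none passed in TG against WT on ND. On HFD 3 rose in TG: the type I receptor chain Ifnar2 by 0.48 (SE 0.12, adjusted p = 0.0293), Il10rb, the chain shared by the lambda receptor, by 0.89 (SE 0.15, adjusted p = 0.0024), and the kinase Jak1 by 0.53 (SE 0.10, adjusted p = 0.00752). Ifnar1 differed by -0.02 on ND and 0.22 on HFD and Ifngr1 by 0.37 and 0.24, without passing. Il10rb was also lower in KO than in TG on ND (-0.65) and rose with HFD in KO (0.77), and Irf3 was higher in KO than in TG on HFD (0.67). Of 17 other sensors and adaptors 2 rose in TG on HFD, the endosomal RNA receptor Tlr7 (1.30, SE 0.27, adjusted p = 0.00943) and Tlr4 (0.56), and none on ND. KO was lower than TG on ND in 3 of the 17, Unc93b1, Ikbke and Adar, and 2, Tlr3 and Ikbke, rose with HFD in KO. The kinase Ikbke, which acts upstream of IRF3 and IRF7, differed by -0.90 (SE 0.16, adjusted p = 0.00226) in the former comparison and by 0.87 (SE 0.16, adjusted p = 0.0151) in the latter. Its diet effect in KO minus that in WT passed at 1.10 (SE 0.22, adjusted p = 0.0235).

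A further 57 interferon-induced genes outside the list were measured. In TG 7 rose on ND and 6 on HFD, and none fell. Ly6e, which encodes a cell-surface protein, rose on both (0.87 (SE 0.15, adjusted p = 0.00445) and 1.03 (SE 0.14, adjusted p = 0.000415)), as did the Schlafen gene Slfn2 (1.41 and 1.17). Others were Uba7, the activating enzyme for ISG15 (0.82 on ND), and Herc6, its ligase (1.15 on ND), Epsti1 (1.43 on HFD) and Ifitm3, which blocks virus fusion (0.58 on HFD). The median difference of the 57 was 0.32 on ND and 0.24 on HFD. KO was lower than TG on ND in 12 of them, led by Ly6e (-1.33), Cmpk2, a neighbour of Rsad2 (-1.07), and Tdrd7 (-0.88). Cmpk2 (-0.82, SE 0.18, adjusted p = 0.0149) and Tdrd7 (-0.96, SE 0.15, adjusted p = 0.000955) were also lower in KO than in WT on ND, and those 2 comparisons share the KO arrays. In KO on HFD against ND, Cmpk2 (1.01), Ly6e (0.81) and Plac8 (0.96) rose. Samd9l and Ly6e were lower in KO than in TG on HFD, and Herc6 rose with HFD in WT. Of 14 genes of the MHC class I pathway, Tap2, the partner of Tap1, rose in TG on ND (0.72), and H2-Q4, a class Ib gene with near-identical relatives, fell in TG on both diets (-1.39 and -1.59). KO was lower than TG on ND in Tap2 and Tapbp and higher on HFD in H2-Q4.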

How the data were processed

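RNA from 19 whole livers was hybridised to 1 array each. The deposited table holds log2 values for 41345 probe sets, normalized by the authors between arrays; per the submitters' processing notes affy, RMA and limma were used, without stated versions or roles, so base 2 and RMA are inferred here from these names and the values. RMA's quantile step would make array distributions alike and can shrink differences of dim genes. Array medians lay between 0.983 and 1.075. Precision is limited by how many arrays each group holds.

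The platform annotation gives 23521 probe sets 1 symbol, 1814 several and 16010 none here; 23328 of the 23521 matched RefSeq (GRCm38.p6) by Entrez identifier. The probe set of highest mean stood for each of 22180 genes, with no filter on dim genes. All arrays were fitted as 6 group means with limma 3.58.1 in R 4.3.3 (lmFit, eBayes; 13 residual and 4.76 prior degrees of freedom), with 9 comparisons of 2 groups and 2 interactions. P-values are two-sided, adjusted within each comparison, and measure the spread between these animals only. The procedure was also run on simulated data with independent genes and shifts planted in TG on ND, in genes with a mean of at least 2. That simulation does not cover correlated genes, outlying arrays or dim genes that change. The members and lists were chosen with earlier results of these data known, and no test was run over the list. Alternatives were a filter on dim genes, median centring, quantile normalization, the mean of probe sets, the compared arrays alone, a trended robust variance, array weights and leaving out each array; leaving out the pair of WT HFD replicate 1 with TG HFD replicate 2 was added after seeing the data. Every gene of the list is named; those with an adjusted p under 0.05 in any comparison, and the 5 transcription factors, have their value in every array. Of other lists, called genes are counted and at most 6 named per comparison, not always those of smallest p. The receptor genes and a few cell markers are named whatever their value.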

Additional observations from a re-analysis of the deposited data

Results flagged for a closer look

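In TG on HFD, the one group of 4 arrays, 1 array stood apart from the other 3 for 2 of the 37 genes, about what chance gives at 1 in 20. Oas1g was 1.67 in replicate 1, against 2.87, 3.04 and 3.09 in the others. Psmb9 was 3.42 in replicate 2, against 3.99, 3.97 and 3.92.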

How the results depend on the processing

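Over 453 refits of the 34 single-gene calls, none changed direction, 362 kept an adjusted p under 0.05 and 91 did not. Leaving out each array in turn, the number of genes passing was 2 to 5 for TG against WT on ND (7 with all arrays), 5 to 9 on HFD (9), 0 to 1 for KO against WT on ND (0) and on HFD (0), 9 to 12 for KO against TG on ND (13), 2 to 6 on HFD (4), 0 to 1 for HFD against ND in WT (0), 0 to 2 in KO (1) and 0 to 1 for the diet effect in KO minus that in WT (0). With the compared arrays alone it was 5 for TG against WT on HFD, 2 for KO against TG on HFD and 0 for HFD against ND in KO. Testing only genes with a mean of at least 2 gave 1 for KO against WT on ND and 1 for the diet effect in KO minus that in WT, both Parp14, and the trended robust variance gave 1 for the latter, also Parp14. With WT HFD replicate 1 and TG HFD replicate 2 both left out, chosen after seeing the data, it was 1 for KO against WT on HFD, 1 for HFD against ND in WT and 1 for the diet effect in KO minus that in WT, each Bst2, and 2 for HFD against ND in KO, with Zbp1 added. For TG against WT on ND and KO against TG on ND the alternatives other than left-out arrays gave 6 to 10 and 9 to 14. No paired analysis was possible because the labels give no replicate numbers shared between groups. Median centring or quantile normalization moved the median of all genes by under 0.1 in each comparison.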

Other observations

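Some arrays ran high or low across the list within their own group, a pattern singled out after the values were seen. WT ND replicate 2 was the highest of its 3 arrays in 23 of 37 interferon-stimulated genes, against 29.6% of all genes. KO HFD replicate 2 was the lowest of its 3 in 25 of 37, against 30.6% of all genes, and KO HFD replicate 3 the highest in 20, against 31.3%. TG HFD replicate 2 was the lowest of its 4 in 18 of 37, against 26.4%. The same array had the highest mean of 10 neutrophil markers in the study, 1.04 above their mean over all arrays on the log2 scale. The other 3 arrays of its group lay between -0.13 and -0.01. For 22 macrophage markers that array stood at 0.93 on the same scale, against 0.81, 0.55 and 0.40 in the rest of its group. For 9 B and plasma cell markers it stood at 0.71, the highest in the study. Members of the list are not independent of each other, and no test was run on these counts.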
